A study of Mus musculus with 18 samples.

Results

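The subunits of the 5 complexes of oxidative phosphorylation were examined in the liver of mice treated with asparaginase. Members were taken by gene name: the nuclear Nduf, Sdh, Uqcr, Cox4 to Cox8 and Atp5 genes, and the mitochondrial genes for subunits of complexes I, III, IV and V. Of 37303 genes in the table, 100 names matched. 1 pseudogene by name (Atp5l-ps1) and 3 muscle isoforms (Cox6a2, Cox7a1 and Cox8b) were set aside, and 4 of the remaining 96 had no valid estimate in at least 1 group. The 92 members left comprised 83 nuclear and 9 mitochondrially encoded genes. Of the nuclear members 37 belonged by name to complex I, 4 to complex II, 8 to complex III, 16 to complex IV and 18 to complex V. Of the mitochondrial members 7 belonged to complex I, 1 to complex III and 1 to complex IV. The names did not match the biology throughout. Cox4nb is a name of a gene for a subunit of the endoplasmic reticulum membrane complex, and Atp5s and Atp5sl are not constitutive subunits. Cox7a2l is described as a factor that joins complexes III and IV into supercomplexes, a role not examined in these mice. Ndufa4 is now assigned to complex IV. Cyc1 and Ndufab1, which code for cytochrome c1 and the acyl carrier protein of complex I, did not match the names and were counted among the electron carriers.

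Oxidative phosphorylation couples the oxidation of NADH and succinate to ATP synthesis in the inner mitochondrial membrane. Electrons enter at complex I (NADH dehydrogenase) or complex II (succinate dehydrogenase, also an enzyme of the tricarboxylic acid cycle), pass through complex III and cytochrome c to complex IV, and the proton gradient built up on the way drives complex V, the ATP synthase. The mitochondrial genome codes for 13 subunits at the core of complexes I, III, IV and V, and the nucleus codes for all others, so that assembly draws on transcripts from both genomes. Hepatocytes are rich in mitochondria and depend on this pathway for gluconeogenesis, ureagenesis and fatty acid oxidation.

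ASNase is a bacterial enzyme used in acute lymphoblastic leukaemia that degrades asparagine and, to a lesser degree, glutamine. GCN2 (Eif2ak4) is a kinase that responds to amino acid shortage, and ATF4 is the transcription factor whose synthesis increases after GCN2 phosphorylates eIF2. Wild-type (WT), Gcn2-/- and Atf4-/- mice, all on C57BL/6J and with deletions in the whole body, received 8 daily intraperitoneal injections of ASNase at 3 IU per gram or of the vehicle PBS, and the liver was taken 7.5 h after the last. Each of the 6 groups held 3 mice, which the labels give as 8 to 16 weeks old and the treatment description as up to 12 weeks. Both sexes were used in each group, with 1 male in WT PBS, Gcn2-/- PBS and Gcn2-/- ASNase and 2 in the other groups. The deposited values are FPKM, fragment numbers scaled to transcript length and library size. Each group has 1 such value per gene, computed over its 3 libraries, an interval around it and a status. Values of single mice were not analysed here, so that no p-value, SD or n stands beside any value. Differences are taken between values of log2(FPKM + 0.1), on which changes of low genes appear too small. A gene was eligible in a comparison if both values were valid and above 0 and either was over 3. It was called if the log2 difference was over 1.5 in either direction and the intervals were separate. A weaker criterion asked whether the difference was larger than the combined interval, the root of the summed squares of both half-widths. Among members over an FPKM of 3 the median half-width was between 43.8% and 45.7% of the value by group, against 51.3% to 54.2% for all such genes.

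The promoter and coding sequences that follow are those of the genes on which the results below turn. In the RefSeq set (GRCm38.p6), a promoter window of 300 bases, 250 of them before the start, was found for 67 of the 83 nuclear members. Windows were searched on both strands for motifs known from respiratory genes. These were the NRF1 site (GCGC, any base, then TGCGC), an ETS site bound by GABP (CCGGAAG), a YY1 site (AAGATGGC) and an oestrogen-related receptor site (TCAAGGTCA). The NRF1 motif was in 16 of the 67 windows (23.9%) and in 4.78% of all 27025 promoters. The ETS motif was in 15 (22.4%, against 9.12%), the YY1 motif in 10 (14.9%, against 2.88%) and the receptor motif in 2, those of Atp5g3 and Sdhd (2.99%, against 0.407%). At least 1 motif was in 36 windows (53.7%, against 15.6% of all promoters). The set of all promoters was not limited to genes expressed in liver, and the shares among such genes were not examined. Of each window the 250 bases before the start are printed, or for Atp5k the first 231. The genes shown are Atp5k, the subunit whose interval in Atf4-/- mice was separate from that in WT mice under ASNase, Uqcr11, Atp5g3, and Cox7a2l, which was higher where most subunits were lower. Capitals mark the NRF1 motif in Atp5k, the ETS motif in Uqcr11 and the receptor motif in Atp5g3, the last read from the opposite strand, and the Cox7a2l window holds none of the 4. An ETS motif of Atp5k and an NRF1 motif of Atp5g3 lie in the part of the window that is not printed. All lie on the minus strand and are printed 5' to 3', at chr5:108434419-108434649, chr10:80406822-80407071, chr2:73911327-73911576 and chr17:83514334-83514583.
Atp5k: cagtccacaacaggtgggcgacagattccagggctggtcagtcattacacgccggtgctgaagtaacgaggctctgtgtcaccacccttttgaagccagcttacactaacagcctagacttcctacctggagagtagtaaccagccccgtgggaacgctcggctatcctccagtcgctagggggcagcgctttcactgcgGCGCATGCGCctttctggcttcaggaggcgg
Uqcr11: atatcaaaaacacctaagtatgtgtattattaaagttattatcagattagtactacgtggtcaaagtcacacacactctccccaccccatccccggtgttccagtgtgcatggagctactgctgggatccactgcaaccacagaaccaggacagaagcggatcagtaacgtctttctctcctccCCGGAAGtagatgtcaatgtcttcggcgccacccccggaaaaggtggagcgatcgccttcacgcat
Atp5g3: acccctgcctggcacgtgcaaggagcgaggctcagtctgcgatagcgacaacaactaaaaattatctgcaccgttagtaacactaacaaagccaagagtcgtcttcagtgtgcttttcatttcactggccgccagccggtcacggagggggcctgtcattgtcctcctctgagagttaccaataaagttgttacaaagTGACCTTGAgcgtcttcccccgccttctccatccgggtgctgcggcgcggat
Cox7a2l: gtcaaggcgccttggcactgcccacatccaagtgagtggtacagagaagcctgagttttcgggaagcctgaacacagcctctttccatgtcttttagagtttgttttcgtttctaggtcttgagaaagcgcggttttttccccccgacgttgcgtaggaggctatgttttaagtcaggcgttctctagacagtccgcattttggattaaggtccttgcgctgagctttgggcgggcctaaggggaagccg
Over the 9 comparisons the median of members with a motif minus that of members without it was between -0.09 and 0.03 for NRF1, between -0.07 and 0.08 for YY1 and between -0.20 and 0.12 for ETS. Under ASNase in Gcn2-/- mice the median log2 difference was -0.58 for the 16 with the NRF1 motif and -0.58 for the 49 eligible members without it, and in Atf4-/- mice both medians were -0.46.

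Subunit c, which forms the rotor ring of the ATP synthase, is coded by Atp5g1, Atp5g2 and Atp5g3, whose products differ in the import sequence and yield the same mature protein. The last 228 coding bases are printed here because these genes went in different directions in the Atf4-/- liver (given with complex V below). Capitals mark the 58 positions at which the 3 genes do not all carry the same base. The stretches span chr11:96073104-96073635, chr15:102663014-102665166 and chr2:73908593-73909296 on GRCm38, introns included, all on the minus strand.
Atp5g1: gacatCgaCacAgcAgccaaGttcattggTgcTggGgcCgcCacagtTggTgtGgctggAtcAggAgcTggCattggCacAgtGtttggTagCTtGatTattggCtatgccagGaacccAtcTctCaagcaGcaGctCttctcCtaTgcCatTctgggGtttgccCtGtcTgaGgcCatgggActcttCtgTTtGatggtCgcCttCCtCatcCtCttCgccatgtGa
Atp5g2: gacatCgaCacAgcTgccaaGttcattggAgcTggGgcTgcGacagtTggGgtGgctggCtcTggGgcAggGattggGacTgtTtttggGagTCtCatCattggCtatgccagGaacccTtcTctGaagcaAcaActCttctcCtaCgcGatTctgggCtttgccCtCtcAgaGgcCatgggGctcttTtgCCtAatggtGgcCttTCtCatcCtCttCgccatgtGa
Atp5g3: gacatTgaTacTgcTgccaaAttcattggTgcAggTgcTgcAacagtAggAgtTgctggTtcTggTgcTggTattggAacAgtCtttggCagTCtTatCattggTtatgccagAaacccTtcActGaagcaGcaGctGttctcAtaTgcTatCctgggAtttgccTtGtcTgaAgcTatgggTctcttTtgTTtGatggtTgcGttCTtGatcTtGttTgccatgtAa
Over these bases Atp5g1 and Atp5g2 were 85.1% identical, Atp5g1 and Atp5g3 79.8%, and Atp5g2 and Atp5g3 78.5%, and the longest run without a difference was 21, 11 and 8 bases. A read within this stretch that is longer than such a run covers at least 1 difference. Of the 83 nuclear members 20 shared at least 200 bases at 95% identity or more with an annotated pseudogene transcript, among them Atp5g1, Atp5g2, Atp5k, Cox7a2l and Atp5h, and their values are uncertain to the extent that reads were split between copies. Their median differences were -0.24, -0.59 and -0.46 under ASNase in WT, Gcn2-/- and Atf4-/- mice, against -0.16, -0.54 and -0.46 for nuclear members without such a copy.

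In the liver of PBS-injected WT mice the members spanned a wide range of levels. On the FPKM scale, which is per length, the nuclear members with the highest level in WT PBS were Ndufa4 in the complex I set (935), Sdha in complex II (379), Uqcrq in complex III (951), Cox7b in complex IV (1278) and Atp5b in complex V (1309), and the lowest of those over 3 were Ndufa11 (15.0), Sdhd (203), Uqcrc1 (165), Cox4nb (4.41) and Atp5s (3.31). The median of the 78 nuclear members over 3 in at least 1 group was 205. Of the 92 members 85 were over 3 in all 6 groups and 86 in at least 1. Cox7b2 and Cox8c, isoforms restricted to other tissues, were listed at 0 throughout, and Cox4i2, Cox6b2 and Atp5l2 remained below 1. mt-Nd4l was listed at 0 in 5 groups and at 0.828 in WT ASNase, and it overlaps mt-Nd4 on the same transcript. The 8 mitochondrial members that could be compared ranged in WT PBS from 2973 for mt-Nd5 to 17050 for mt-Co2. Together they made up 9.19% of all FPKM in the table, against 3.15% for those 78 nuclear members.

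The first question was how ASNase changed the liver of each strain. In WT mice 78 of 85 eligible members were lower under ASNase and 7 were higher, with a median of -0.18 and a range from -0.43 (Atp5k) to 0.17 (mt-Nd5). Of all eligible genes 51.0% were lower, with a median of -0.01. No member was called (0.881% of all genes), none had separate intervals (1.01% of all genes) and none exceeded the combined interval (1.97%). In Gcn2-/- mice 83 of 86 members were lower, with a median of -0.56, against 48.5% of all genes and a median of 0.02. Again 0 members were called and 0 had separate intervals (3.69% and 4.24% of all genes), while 4 exceeded the combined interval (11.0% of all genes). In Atf4-/- mice 76 of 85 members were lower, with a median of -0.46, against 46.2% of all genes and a median of 0.08. There 0 were called and 0 had separate intervals (7.37% and 8.03% of all genes), and 7 exceeded the combined interval (18.2% of all genes). The shift was shared by most members, and the share of members past either interval criterion lay below that of all genes in all 3 strains. For all but these members the combined interval was wider than the difference. In liver tissue measured as a whole, fewer cells of a type and less RNA per cell cannot be told apart.

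**Figure D1:**
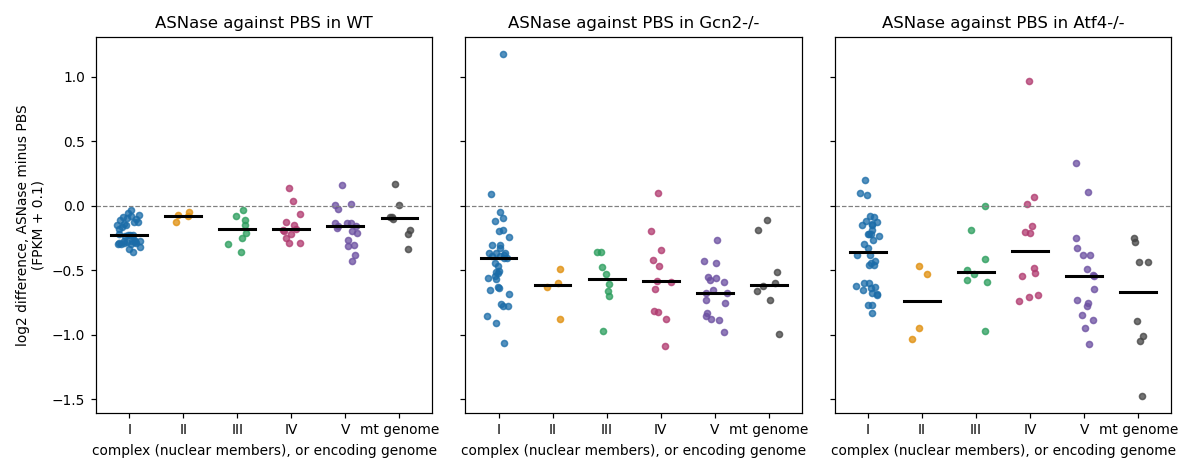
Log2 difference (FPKM + 0.1) between ASNase and PBS for each eligible member in WT, Gcn2-/- and Atf4-/- mice. Points are genes, grouped by complex for nuclear members and together for the mitochondrially encoded ones, black bars are medians, and the dashed line is 0. Nearly all points lie below 0, with nuclear medians from -0.08 to -0.23 by complex in WT mice and from -0.35 to -0.74 in the mutants.

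These differences depend on how the groups are scaled to each other. When FPKM were rescaled to an equal sum outside the mitochondrial genome, the median of all genes moved by between -0.31 and 0.27 depending on the comparison. In WT mice 47 of 85 members were then lower against 28.1% of all genes, and their median was -0.02 against 0.15 for all genes. In Gcn2-/- mice 77 members were lower with a median of -0.37 against 0.21 for all genes, and in Atf4-/- mice 83 with a median of -0.67 against -0.16. The sum behind this rescaling took in genes of any status. Genes without a valid estimate numbered from 18 in both Gcn2-/- groups to 37 in Atf4-/- PBS over the whole table, and their part in the factors was not tested. Relative to the median of all genes the members were at -0.17, -0.58 and -0.54 in WT, Gcn2-/- and Atf4-/- mice as deposited and at -0.18, -0.58 and -0.52 after this rescaling. Scaling by the median ratio over genes moved the members' medians by between -0.07 and 0.05 over the 9 comparisons. The members' median lay below that of all genes under each scaling in the 3 strains. Dividing by a group factor shifts members and all genes nearly alike. The distance between these medians was thus close to fixed in advance, and its stability is no test of the shift.

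The difference between strains in the response was examined member by member. The ASNase difference in Gcn2-/- mice was more negative than that in WT mice for 78 of 85 members, with a median of -0.41, and that in Atf4-/- mice for 70 of 85, with a median of -0.30. For all genes the shares were 52.2% and 49.2%. These counts share the WT groups. No member's response differed between WT and either mutant by more than the combined interval of the 4 values, against 5.54% of all genes for Gcn2-/- and 9.08% for Atf4-/- mice. Between Atf4-/- and Gcn2-/- mice the median difference was 0.08, and of 85 members 1, Cox7a2l, passed that interval, against 5.14% of all genes. After rescaling outside the mitochondrial genome this median was -0.32 against -0.38 for all genes, and those against WT mice were -0.37 for Gcn2-/- (all genes, 0.01) and -0.67 for Atf4-/- mice (all genes, -0.35).

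Complex I was the largest set. Under ASNase its nuclear members had medians of -0.23, -0.41 and -0.36 in WT, Gcn2-/- and Atf4-/- mice, and 36 of 36, 35 of 37 and 33 of 36 were lower. The core of the hydrophilic arm is formed by nuclear subunits that carry flavin or iron-sulphur clusters or bind quinone. Ndufs1, the large iron-sulphur subunit, had 57.3 FPKM in WT PBS and 55.9 in WT ASNase, 62.1 and 33.1 in Gcn2-/- mice, and 52.1 and 30.5 in Atf4-/- mice. Its log2 differences of -0.04, -0.91 and -0.77 were near 0 in WT and more negative in both mutants. Each of these differences lay within its combined interval, and neither mutant response differed from that of WT mice by more than the combined interval. Ndufv1, which binds NADH and flavin, differed less, with 112 and 106 FPKM in WT, 106 and 81.5 in Gcn2-/- and 95.9 and 87.8 in Atf4-/- mice. Ndufs3, Ndufs7, Ndufs8 and Ndufv2 had differences from -0.10 to -0.36 in WT, from -0.25 to -0.69 in Gcn2-/- and from -0.15 to -0.60 in Atf4-/- mice.

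Among accessory subunits of complex I, Ndufb8 of the membrane arm was the lowest in Gcn2-/- mice relative to PBS. Its level was 240 in Gcn2-/- PBS and 114 in Gcn2-/- ASNase, a log2 difference of -1.07 against a combined interval of 0.94, while it was 227 and 182 in WT and 166 and 103 in Atf4-/- mice. Ndufb5 had the most negative difference in Atf4-/- mice (159 and 89.1, -0.83), and was also at -0.85 in Gcn2-/- mice. Ndufa4, counted here by name though now assigned to complex IV, was the most abundant of the set. It had 935 and 760 FPKM in WT, 1085 and 638 in Gcn2-/- and 733 and 430 in Atf4-/- mice. Against the direction of the set, Ndufa2 was at 142 and 163 in Atf4-/- mice (0.20), and Ndufa7 (158 and 168) and Ndufa8 (65.6 and 69.6) were slightly higher. Ndufa4l2, a relative of Ndufa4 known from hypoxia, was over 3 only in Gcn2-/- ASNase, at 4.10 against 1.76 in PBS. All 6 of its intervals reached down to 0, and its difference of 1.17 stood against a combined interval of 6.93.

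Complex II is entirely nuclear. Its medians were -0.08, -0.62 and -0.74 in WT, Gcn2-/- and Atf4-/- mice, and all 4 members were lower in each strain. Sdha, the flavoprotein, had 379 and 360 FPKM in WT, 333 and 219 in Gcn2-/- and 323 and 167 in Atf4-/- mice, but with intervals that reached 0 in all groups. Sdhb, the iron-sulphur subunit, had 207 and 200 in WT, 212 and 115 in Gcn2-/- and 153 and 111 in Atf4-/- mice. The membrane anchor Sdhc gave 266 and 251, 267 and 189, and 232 and 160. Sdhd, the second anchor, had 203 and 186 FPKM in WT, 245 and 158 in Gcn2-/- and 157 and 76.8 in Atf4-/- mice. In Atf4-/- mice the Sdhd difference of -1.03 exceeded the combined interval of 0.87, and Atf4-/- ASNase was also lower than Gcn2-/- ASNase by more than it (-1.04).

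Complex III transfers electrons from ubiquinol to cytochrome c. Its nuclear members had medians of -0.18, -0.57 and -0.52, and all 8 were lower in WT and Gcn2-/- mice. Uqcrfs1, the Rieske iron-sulphur protein, had 181 and 178 FPKM in WT, 218 and 143 in Gcn2-/- and 153 and 115 in Atf4-/- mice. Uqcr11, a small accessory subunit (chr10:80402997-80406830), was the most negative of the complex in all 3 strains. Its levels were 455 and 355 in WT, 493 and 251 in Gcn2-/- and 307 and 156 in Atf4-/- mice, with log2 differences of -0.36, -0.97 and -0.97. The combined intervals were 0.86 in WT, 0.86 in Gcn2-/- and 0.84 in Atf4-/- mice, so both mutant differences passed this criterion. Uqcr10 differed by 0.00 between the Atf4-/- groups, while it was at 470 and 326 in Gcn2-/- mice.

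Complex IV, cytochrome c oxidase, reduces oxygen. Its nuclear members had medians of -0.18, -0.59 and -0.35, and 10, 11 and 9 of 12 eligible members were lower. Cox4i1, the main isoform of subunit 4, had 569 and 545 FPKM in WT, 600.1 and 433 in Gcn2-/- and 446 and 449.6 in Atf4-/- mice (0.01, combined interval 3.95). Cox6c was the most negative in WT (-0.29) and Atf4-/- mice (430 and 257, -0.74). Cox7a2 led in Gcn2-/- mice, at 266 and 125, a difference of -1.09 against a combined interval of 0.87, while it was 208 and 191 in WT and 167 and 103 in Atf4-/- mice. Cox7b, the most abundant, had 1278 and 1046, 1734 and 986, and 1061 and 651. Cox6a1, Cox6b1 and Cox8a, the isoforms of liver, had differences from -0.18 to -0.25 in WT, from -0.35 to -0.65 in Gcn2-/- and from -0.20 to -0.53 in Atf4-/- mice.

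Cox7a2l (ENSMUSG00000024248, chr17:83501918-83517330) was higher under ASNase in Atf4-/- mice, as were 8 other members, and lower in Gcn2-/- mice. WT mice had 106 FPKM under PBS and 108 under ASNase, Gcn2-/- mice 119 and 79.0, and Atf4-/- mice 100.4 and 196. The Atf4-/- ASNase group was the highest of the 6, with an interval from 108.2 to 284.0, and the other 5 lay within 79.0 to 119. In Atf4-/- mice the log2 difference between ASNase and PBS was 0.96 (combined interval 0.88), in Gcn2-/- mice -0.59 and in WT mice 0.03. The response in Atf4-/- mice exceeded that in Gcn2-/- mice by 1.55, against a combined interval of 1.23 for the 4 values. After rescaling outside the mitochondrial genome this was 1.14 and no longer larger than the interval. A pseudogene transcript shares at least 200 bases of this gene without a difference.

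Complex V had medians of -0.16, -0.68 and -0.54, and 14, 17 and 15 of 17 eligible members were lower. The catalytic head consists of Atp5a1 and Atp5b. Atp5b had 1309 and 1321 FPKM in WT, 1416 and 950 in Gcn2-/- and 1061 and 846 in Atf4-/- mice, and Atp5a1 had 585 and 574, 606 and 364, and 478 and 330. Atp5c1, the central stalk, was more negative, with 288 and 263, 319 and 173, and 222 and 115, and its difference of -0.95 in Atf4-/- mice exceeded the combined interval of 0.89. Atp5d and Atp5e, also of the central stalk, had -0.55 and -0.45 in Gcn2-/- and -0.25 and -0.49 in Atf4-/- mice. Atp5h, of the peripheral stalk, had the most negative difference of the complex in Gcn2-/- mice (492 and 250, -0.98).

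Atp5k, subunit e, which helps to hold ATP synthase dimers together (ENSMUSG00000050856, chr5:108433244-108434448), had 595 FPKM in WT PBS and 442 in WT ASNase, 587 and 397 in Gcn2-/- and 376 and 179 in Atf4-/- mice. It was the most negative member of complex V in WT (-0.43) and in Atf4-/- mice (-1.07, combined interval 0.84). Under ASNase the interval of Atf4-/- mice, from 103.9 to 254.1, lay below that of WT mice, from 261.2 to 623.7. This was the only pair of separate intervals among all members and all 9 comparisons of the 6 groups. A pseudogene transcript matches it at 95.7% identity.

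The 3 genes for subunit c differed in direction in Atf4-/- mice. In WT PBS and ASNase, Atp5g1 had 311 and 252 FPKM, Atp5g2 177 and 157, and Atp5g3 723 and 646. In Gcn2-/- mice all 3 were lower under ASNase, with Atp5g1 at 330.0 and 182, Atp5g2 at 201 and 128, and Atp5g3 at 809 and 438. In Atf4-/- mice Atp5g1 was at 211 and 114 (-0.89, combined interval 0.87) and Atp5g3 at 527 and 307 (-0.78), while Atp5g2 was at 150.4 and 189 (0.33, combined interval 0.84). Atp5g2 was thus above Atp5g1 in Atf4-/- ASNase and below it in the other 5 groups. The difference between its responses in Atf4-/- and Gcn2-/- mice, 0.98, was within the combined interval of 1.19.

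**Figure D2:**
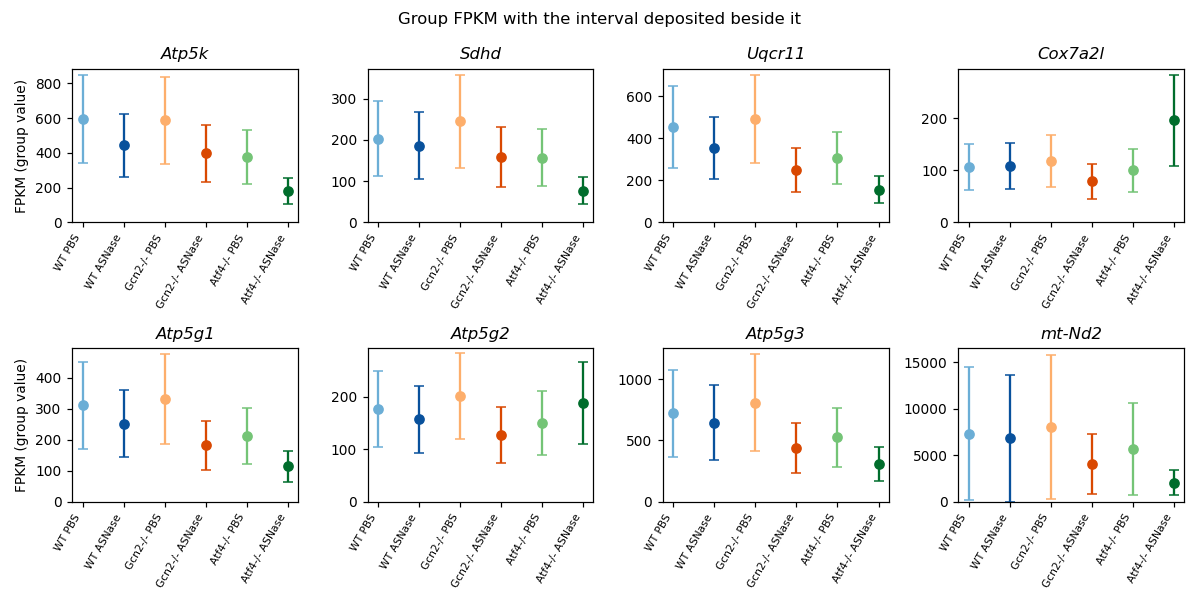
FPKM of 8 members in the 6 groups, each axis from 0. Points are the group values and bars the intervals deposited with them, each made from 3 libraries together. Atp5k, Sdhd, Uqcr11, Atp5g1 and Atp5g3 are lowest in Atf4-/- ASNase, Cox7a2l is highest there (196), and the intervals of mt-Nd2 reach from near 0 to 15727 FPKM.

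The mitochondrial members were lower as a set as well. Their medians under ASNase were -0.10, -0.61 and -0.67 in WT, Gcn2-/- and Atf4-/- mice, with 6, 8 and 8 of 8 lower, although in WT the median turned to 0.06 and 3 of 8 were lower after rescaling outside the mitochondrial genome. mt-Nd2, a proton-pumping subunit of complex I (mitochondrial positions 3914 to 4951), had 7327 and 6811 FPKM in WT, 8031 and 4034 in Gcn2-/- and 5678 and 2045 in Atf4-/- mice. Its log2 difference of -1.47 in Atf4-/- mice was the largest of any member among the 3 comparisons of ASNase with PBS, and was within a combined interval of 1.57. mt-Nd3, next to the quinone site, had 7783 and 6160, 8113 and 4893, and 4980 and 2400, and the last difference, -1.05, was larger than its combined interval only beyond the second decimal (1.05). mt-Nd4 had 7952 and 7491, 9453 and 5973, and 5885 and 2919. mt-Cytb, the cytochrome b of complex III, had 10989 and 9426, 12452 and 8705, and 7387 and 3968, and mt-Co2 of complex IV had 17050 and 14930, 17237 and 11203, and 11275 and 8325. mt-Nd1 (8117 and 7621, 5183 in Gcn2-/- ASNase and 4833 in Atf4-/- ASNase), mt-Nd5 and mt-Nd6 differed least in Atf4-/- mice, at -0.28, -0.43 and -0.25. mt-Nd5 and mt-Nd6 lie on opposite strands, and the library kit did not mark strand, so reads of the end of mt-Nd5 and of mt-Nd6 cannot be told apart.

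The share of the mitochondrial members in the summed FPKM of the table amounted to 9.19% under PBS and 9.22% under ASNase for WT, 8.59% and 6.64% for Gcn2-/-, and 7.04% and 3.60% for Atf4-/- mice. The nuclear members took 3.15% and 3.05%, 3.09% and 2.39%, and 2.60% and 1.57%. The ratio of the mitochondrial to the nuclear sum was 2.92 and 3.02 in WT, 2.78 and 2.79 in Gcn2-/- and 2.71 and 2.30 in Atf4-/- mice, lowest in Atf4-/- ASNase. 3 mitochondrial genes had a valid value in that group only (mt-Co3, mt-Atp6 and mt-Atp8) and mt-Co1 in none, so the sums leave out part of complex IV and all mitochondrial subunits of complex V. The summed FPKM of the table included these 3 genes in Atf4-/- ASNase only. The shares in that group thus rest on a total enlarged by them and are not strictly comparable with the others.

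**Figure D3:**
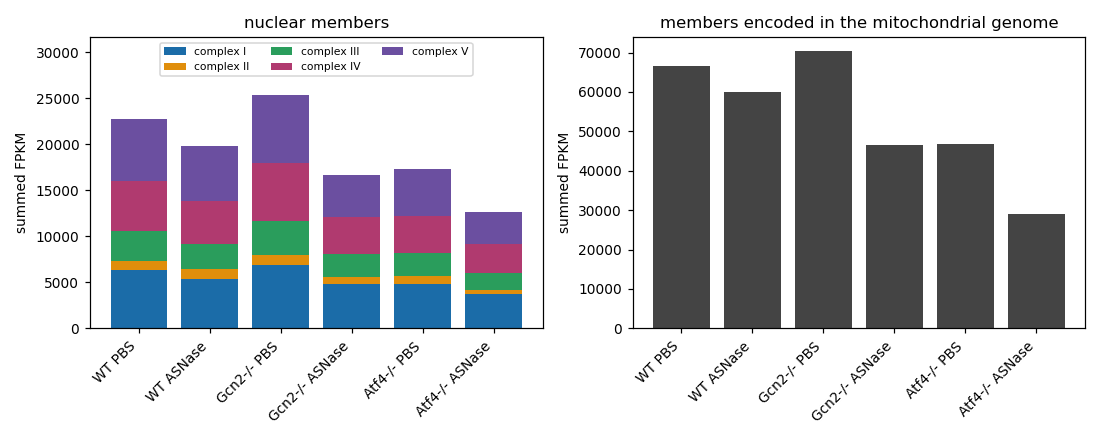
Summed FPKM of the nuclear members by complex (left) and of the mitochondrially encoded members (right) in the 6 groups, on axes of different range that start at 0. The nuclear sum ranged from 12668 in Atf4-/- ASNase to 25304 in Gcn2-/- PBS and the mitochondrial sum from 29132 to 70376.

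Next, the strains were compared under each treatment. Under PBS, Gcn2-/- mice had slightly higher levels than WT mice in 69 of 85 members, with 16 lower and a median of 0.12, against 39.9% of all genes lower and a median of 0.06. After rescaling outside the mitochondrial genome 57 members were lower with a median of -0.07, against 70.1% of all genes and a median of -0.13, so the sign turned. That the members' median stayed above that of all genes was close to fixed in advance, since the rescaling shifts both nearly alike. 0 members were called, had separate intervals or exceeded the combined interval, against 1.04%, 1.2% and 2.68% of all genes. Atf4-/- mice had lower levels than WT mice under PBS in 82 of 85 members, with a median of -0.37 and a range from -0.66 (Atp5k) to 0.32 (Atp5s), against 49.6% of all genes. Again 0 members were called, had separate intervals or exceeded the combined interval, against 1.12%, 1.28% and 2.64% of all genes. The medians by complex were -0.37, -0.30, -0.39, -0.46 and -0.37 for complexes I to V and -0.45 for the mitochondrial members. Against Gcn2-/- PBS, 85 of 85 members were lower in Atf4-/- PBS with a median of -0.52 (all genes, 56.2% lower), and 0 were called (0.976%), had separate intervals (1.25%) or exceeded the combined interval (3.0%).

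Under ASNase, Gcn2-/- mice had lower levels than WT mice in 73 of 86 members, with a median of -0.25, against 46.4% of all genes. 0 members were called, had separate intervals or exceeded the combined interval, while 4.41%, 4.87% and 11.4% of all genes did. Atf4-/- mice had lower levels than WT mice in 81 of 85, with a median of -0.67, against 46.1% of all genes. By complex the medians were -0.50, -0.98, -0.68, -0.65 and -0.74, and -1.05 for the mitochondrial members. 0 members were called (8.25% of all genes), 1 had separate intervals (9.01%) and 13 exceeded the combined interval (18.9%). The 13 were Ndufa9 and Ndufa13, accessory subunits of complex I, mt-Nd2 and mt-Nd3, Sdhd, Uqcr11, Cox6a1 and Cox7a2, and Atp5c1, Atp5g1, Atp5g3, Atp5j2 and Atp5k, 5 subunits of ATP synthase. All 13 were lower in Atf4-/- mice, between -0.88 (Cox6a1) and -1.74 (mt-Nd2). Relative to Gcn2-/- ASNase, 78 of 86 members were lower in Atf4-/- ASNase with a median of -0.42, against 49.7% of all genes. 0 were called (3.19%), 0 had separate intervals (3.61%) and 4 exceeded the combined interval (9.74%), namely Sdhd, Atp5j2 and Atp5k, which were lower, and Cox7a2l, which was higher (1.31). Comparisons within a treatment share groups with each other and with the ASNase comparisons, and their values are given side by side only.

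Over the 6 groups, 73 of the 85 members over 3 throughout were lowest in Atf4-/- ASNase and 67 were highest in Gcn2-/- PBS, against 31.0% and 20.6% of 7662 genes. After rescaling outside the mitochondrial genome 81 were lowest in Atf4-/- ASNase (37.6% of all genes), 23 were highest in Gcn2-/- PBS (4.67%), 30 in WT PBS (8.48%) and 30 in WT ASNase (26.3%). All 8 mitochondrial members were lowest in Atf4-/- ASNase. In both mutants, whose ASNase comparisons share no group, 76 of 85 members were lower, against 34.3% of all genes. Across members the differences in Gcn2-/- and Atf4-/- mice had a Pearson r of 0.50 and a Spearman rho of 0.55 (n = 85 genes, which are not independent), against 0.65 and 0.60 across 8911 genes.

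**Figure D4:**
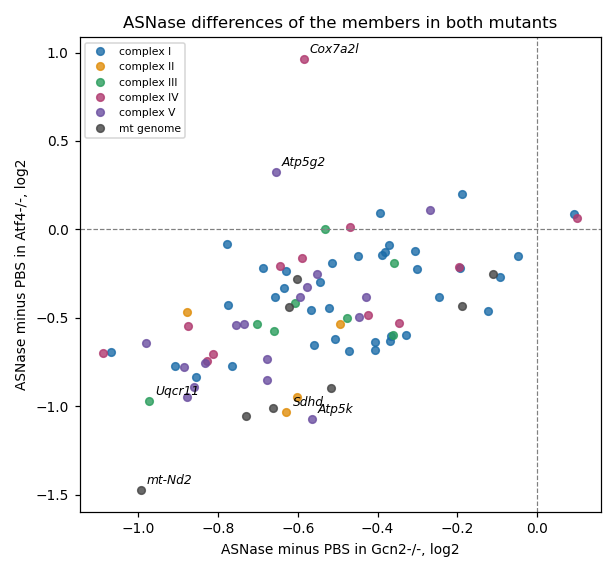
Log2 difference between ASNase and PBS in Gcn2-/- (x axis) and Atf4-/- mice (y axis) for 85 members, coloured by complex or as mitochondrially encoded. Most points lie in the lower left quadrant. Cox7a2l (-0.59 and 0.96) and Atp5g2 (-0.65 and 0.33) lie above the dashed line at 0 on the y axis, and mt-Nd2 is the lowest point.

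The genes around the complexes differed among each other. The 18 genes of the tricarboxylic acid cycle and pyruvate dehydrogenase had medians of -0.03, -0.42 and -0.56 under ASNase in WT, Gcn2-/- and Atf4-/- mice, and 1 was called. Idh2, the mitochondrial NADP-dependent isocitrate dehydrogenase, had 101 and 99.7 FPKM in WT, 98.9 and 37.2 in Gcn2-/- and 69.4 and 22.9 in Atf4-/- mice, where the intervals were separate and the difference was -1.60. Mdh2, malate dehydrogenase, was at 134 and 208 in Atf4-/- mice. The electron carriers and genes of coenzyme Q synthesis had medians of -0.07, -0.47 and -0.40. Among them Etfdh, which passes electrons from fatty acid oxidation to coenzyme Q, had 138 and 130, 148 and 72.1, and 115 and 38.0, and was called in Atf4-/- mice (-1.60). Cyc1 of complex III, not matched by the names, had 217 and 205, 233 and 158, and 188 and 144, and Ndufab1 had 235 and 196, 262 and 192, and 173 and 127.

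The 30 eligible assembly factors of the complexes had medians of -0.12, -0.04 and -0.15, with 20, 17 and 16 of 30 lower and 0 called. In Atf4-/- mice Tmem126b, a complex I assembly factor, was the lowest (13.1 and 5.96, -1.12). The genes of mitochondrial DNA transcription, replication and RNA upkeep had medians of 0.01, -0.10 and 0.21. Tfam, the packaging and transcription factor of mitochondrial DNA, had 49.5 and 49.1, 58.9 and 36.7, and 46.5 and 41.7. Lonp1, a matrix protease, was called in Atf4-/- mice, at 50.1 and 149 (1.57), with 54.4 and 58.7 in WT. The 12 eligible nuclear regulators had medians of 0.38, 0.23 and 0.37. Esrra, the receptor of the motif described above, had 16.0 and 23.3 FPKM in WT, 19.8 and 15.6 in Gcn2-/- and 18.2 and 7.15 in Atf4-/- mice, and Ppara, a regulator of fatty acid oxidation, had 44.7 and 63.7, 60.9 and 39.8, and 43.8 and 8.52. Pprc1, a coactivator, was higher in each strain (7.90, 9.35 and 15.2 under ASNase, against 5.16 or less under PBS). Gabpa was at 13.7 and 22.5, 17.6 and 15.9, and 17.8 and 21.8, and Nrf1 at 4.69 and 5.33, 4.49 and 5.66, and 6.11 and 8.35.

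Ribosomal proteins of both compartments were included for comparison. The 76 mitochondrial ribosomal protein genes had medians of -0.19, -0.12 and -0.02. The cytosolic ribosomal protein genes had medians of -0.01, 0.07 and 1.58 with 30 of 83 called in Atf4-/- mice. As FPKM are relative to the total, values of different sets in a group are not independent of each other.

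**Figure D5:**
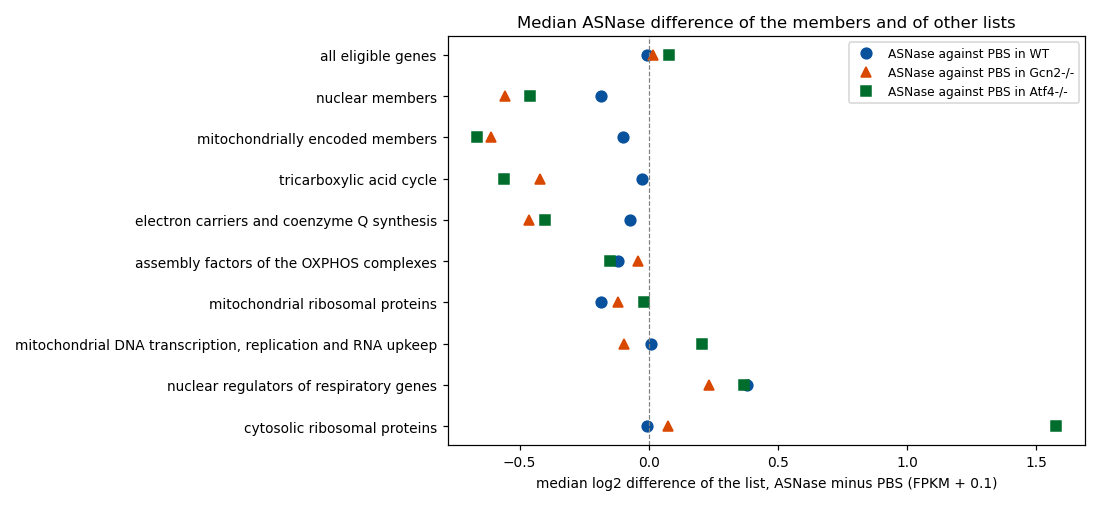
Median log2 difference (FPKM + 0.1) between ASNase and PBS for all eligible genes, the members by genome and 7 other lists, with 1 symbol per strain and the dashed line at 0. Nuclear and mitochondrial members, the tricarboxylic acid cycle and the electron carriers are low in both mutants, and the cytosolic ribosomal proteins are high in Atf4-/- mice (1.58).

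Cell type markers moved between groups as well. The 16 skeletal muscle genes summed to 1044 and 1471 FPKM in WT, 6.19 and 9.36 in Gcn2-/- and 82.0 and 187 in Atf4-/- mice, and 15 of 16 were over 3 in either WT group, 1 in either Gcn2-/- group, and 9 or 10 in Atf4-/- mice. In Gcn2-/- mice 2 of the 16 were listed at 0 under PBS and 1 under ASNase. The muscle isoforms set aside followed, Cox6a2 with 18.7 and 23.9 in WT and 0.0284 and a listing at 0 in Gcn2-/- mice, and Cox8b with 32.3 in WT ASNase and 0.187 in Gcn2-/- ASNase. The muscle sum was larger in ASNase than in PBS in each strain, and its part in the members' values was not tested. The erythroid list summed to 258 and 145, 147 and 11.5, and 216 and 7.05 FPKM, and its part was not tested. The median difference of the hepatocyte markers under ASNase was -0.03 over 11 eligible genes in WT, -0.23 over 10 in Gcn2-/- and -0.89 over 10 in Atf4-/- mice, and their part was not tested either. Ranges of the other lists were 137 to 281 for Kupffer cells and macrophages, 136 to 250 for endothelial and stellate cells, 20.3 to 75.4 for white fat and 1.07 to 8.67 for brown fat. As for the targeted genes, Atf4 was at 32.3 and 29.3 FPKM in Atf4-/- mice and between 50.4 and 68.1 elsewhere, and Eif2ak4 was between 2.19 and 3.14 in all groups. A value over the whole gene does not check a deletion of part of it. The study itself reported from plots of read density that a Gcn2 exon and Atf4 were absent in the respective mutants.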

How the data were processed

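Poly-A RNA from the liver of 18 mice was made into TruSeq libraries that do not mark strand and sequenced as single-end reads. Per the labels and the study's methods, the authors used TopHat (with Bowtie) for alignment against the mm10 genome, then Cufflinks, Cuffmerge and Cuffdiff, and deposited the resulting FPKM, 1 value per group of 3 libraries and gene. The other deposited columns are the lower and upper bounds of each interval and a status. Read depth per library is not part of the deposited table and was not analysed here. 0 columns of per-sample values lay outside the map of columns to groups.

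The members and all gene lists were chosen with earlier results of these data known. Values with a status other than OK were left out. A pseudocount of 0.1, an FPKM over 3 in either group and an absolute log2 difference over 1.5 with separate intervals defined eligible and called genes. Half-widths on the log2 scale were the distance from the FPKM to the upper bound, divided by FPKM + 0.1 and by the natural log of the base. The rule for named genes took mitochondrial members, those with separate intervals, the extremes of level and of response in each complex, core subunits and isoform families. Members past the combined interval, Ndufa7 and Ndufa8 were named after their values were seen. The values of 1 core subunit are not reported here on their own. Gene positions are from GENCODE M21 by Ensembl identifier (92 of 92 members), and promoters from RefSeq, with the first start where several were listed. Pseudogene copies were searched with blastn 2.17.0. Python 3.11.15, numpy 2.4.6, pandas 2.3.3, scipy 1.17.1 and matplotlib 3.10.9 were used. The calling was tested on simulated data with changes far larger than those of the members, so differences of the members' size were not tried. Alternatives were another pseudocount, other filters, scalings, interval and fold criteria, and other memberships.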

Additional observations from a re-analysis of the deposited data

Results flagged for a closer look

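Cox7a2l was singled out because its response to ASNase differed between Atf4-/- and Gcn2-/- mice. It was the only 1 of 85 members to pass, against 5.14% of all genes. Relative to WT mice its response differed by 0.93 in Atf4-/- and -0.62 in Gcn2-/- mice, both within the combined interval. The log2 difference in Atf4-/- mice exceeded that in Gcn2-/- mice by 1.55, more than the combined interval of the 4 group values (1.23). The interval is the only error available, since each group has 1 value from 3 libraries. With a pseudocount of 1 the value was 1.54, with median-ratio scaling 1.47, and with an equal sum outside the mitochondrial genome 1.14, which was within the interval.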

How the results depend on the processing

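No paired analysis was possible because the table holds 1 value per group and none per library, and for the same reason no replicate could be left out. Under the alternatives, 607 summary values were counted as unchanged and 26 were not. A median counted as unchanged if its sign held and it moved by no more than the median combined interval of its genes. A count did if it was equal or near in ratio. As these intervals were wide, this is a loose criterion. With an equal sum outside the mitochondrial genome the members' medians moved by between -0.29 and 0.27. With the combined interval in place of separate intervals, 4 members passed in Gcn2-/- mice under ASNase against PBS, 7 in Atf4-/- mice, 13 in Atf4-/- against WT and 4 in Atf4-/- against Gcn2-/- mice under ASNase, and 1 was called in Atf4-/- against WT. Of all genes 11.0%, 18.2%, 18.9% and 9.74% passed the combined interval in these comparisons. With a log2 limit of 1, 1 was called in Atf4-/- against WT under ASNase. Median-ratio scaling gave 2 members with separate intervals there, and in Gcn2-/- against WT under PBS turned the medians of the mitochondrial members to -0.0239 and of complex II to -0.0442. Shares of all genes called with the combined interval or a log2 limit of 1, or separate under median-ratio scaling, are not given here.

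With an equal sum outside the mitochondrial genome, separate intervals numbered 1 in Atf4-/- mice under ASNase against PBS, 7 in Atf4-/- against WT (2 called) and 1 in Atf4-/- against Gcn2-/- under ASNase. As deposited, 8.03%, 9.01% and 3.61% of all genes had separate intervals in these comparisons. The shares of all genes after this rescaling are not given here, so these counts are no result about the members. In WT mice the medians turned to 0.0571 for mitochondrial members and 0.0772 for complex II. In Gcn2-/- against WT under PBS they turned to -0.0693 for all members, -0.0671 for nuclear, -0.1483 for mitochondrial members, and -0.0682, -0.1686, -0.0281, -0.0661 and -0.0461 for complexes I to V. Between strains, 1 member's response (that of Sdhd) passed the interval for Atf4-/- minus WT and 0 for Atf4-/- minus Gcn2-/-, where the median turned to -0.3207. Dividing by other group factors shifts all genes alike, and which scaling is nearer to RNA per cell was not tested. For the named members, run in the ASNase comparisons with PBS and in Atf4-/- against WT under ASNase, 8 values gained separate intervals under a scaling and 268 did not. The width of the intervals limits what can be said of single members.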

Other observations

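The mitochondrial ribosomal RNA genes, which are not subunits and are poorly captured by poly-A selection, were listed at 1093 and 1836 FPKM in WT, 2126 and 548 in Gcn2-/- and 851 and 1645 in Atf4-/- mice under PBS and ASNase for mt-Rnr1. For mt-Rnr2 the values were 776 and 1662, 1795 and 357, and 641 and 1151. Both were higher under ASNase than under PBS in WT and Atf4-/- mice and lower in Gcn2-/- mice, whereas all 8 mitochondrial members were lower in both mutants.

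Among the 4 mitochondrial subunits left out for their status, mt-Co3, mt-Atp6 and mt-Atp8 had a valid estimate in Atf4-/- ASNase only, at 8080, 9592 and 41743 FPKM, and were listed at 0 in the other groups, so no difference is given for them.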
